A study of Canis lupus familiaris with 14 samples.

Results

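T cell receptor genes of the dog were examined in blood RNA, in an alpha/delta window of chromosome 8 and a beta window of chromosome 16. Members were chosen by position and size, as annotated genes of CanFam3.1 with an exonic length of up to 1500 bases. Their smallest start coordinate, on either strand, had to lie between 1500000 and 3800000 of chromosome 8 or between 6400000 and 7600000 of chromosome 16. This gave 99 of 30951 genes, 61 in the alpha/delta window and 38 in the beta window. The deposited table carries Ensembl identifiers without symbols, so genes are given by position and exon structure, and no gene name was assigned.

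A T cell receptor pairs an alpha with a beta chain, or a gamma with a delta chain. Each chain is assembled in the thymus by joining a variable (V) segment, in the beta and delta chains a diversity (D) segment, and a joining (J) segment, after which the joined exon is spliced to a constant region. The delta locus lies inside the alpha locus. V genes usually have a short leader exon followed by a single V exon, J segments are very short single exons, and constant genes have several exons. A clone of T cells carries its own joined V segments, whereas a mixed population uses many. In blood, receptor transcripts come from T cells, which are a minority of the leukocytes.

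The libraries were made from total RNA of blood, 7 from dogs with lymphoma (L1 to L7), a cancer of lymphocytes, and 7 from controls labelled as non-lymphoma (N1 to N7). The labels used here name the disease state and the tissue and no breed, age, treatment or lymphoma type, so B and T cell lymphomas were not separated. Whether the libraries of a group are separate animals is not stated beyond their separate labels. A p-value here sets the group difference only against the spread of these libraries, which may be technical. Total counts ran from 9845059 to 14831589 in lymphoma and from 13522628 to 21610927 in non-lymphoma libraries. The 10 most abundant genes and the mitochondrial genes took a share of 31.3 to 49.9% in lymphoma and of 13.4 to 40.6% in the controls. The blood label could not be checked against marker genes, and the CD3 chains and signalling genes of the receptor could not be looked up, because 0 identifiers matched the reference table that gives symbols. In a bulk library fewer T cells and less receptor RNA per T cell cannot be told apart.

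Members were grouped by structure alone. V-segment-like genes, called V-like here, have 2 exons and 250 to 600 exonic bases, and numbered 16 in the alpha/delta window and 6 in the beta window. J-size genes have 1 exon of at most 80 bases and numbered 7, all in the alpha/delta window, of which 2 had no count in any library. The remaining members were 8 other 2-exon genes, 13 longer single-exon genes and 17 genes with 3 or more exons in the alpha/delta window, and 5, 11 and 16 of these in the beta window. In the alpha/delta window the V-like genes began at 2282856, the 5 J-size genes with counts lay between 2901647 and 2939378, and a gene with 5 exons (729 bases in all) spanned 2920146 to 2951815. An order of V segments, J segments and a constant gene is that of a receptor locus, though the class names here rest on structure only. The order is not strict here, since the last J-size gene with counts, at 2939304 to 2939378, lies inside the span of the 5-exon gene. As background, the RefSeq gene table of another assembly, UU_Cfam_GSD_1.0, places 21 V segments and 1 constant region gene within 1500 kb of DAD1 on chromosome 8. It places 18 V segments and 2 constant region genes within 1500 kb of EPHB6 on chromosome 16. Positions were not compared between the assemblies. DAD1 and EPHB6 are not receptor genes, and the windows may hold members of other families too. Of the 99 members 4 in the alpha/delta and 1 in the beta window had no count in any library.

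Libraries N2 and N7 were the lowest non-lymphoma libraries in receptor genes. The V-like genes had 25 counts in N2 and 39 in N7 in the alpha/delta window, and 29 and 66 in the beta window. The other 5 non-lymphoma libraries had 68 to 258 and 97 to 368. Values without N2, the lowest in each class, are given beside those of all libraries.

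The V-like genes of the alpha/delta window together had a lower mean in lymphoma blood, with overlapping groups. Their summed level, in counts per 1000000 counts of the library (CPM), was lowest at 0.913, had a median of 2.16 and was highest at 7.52 in lymphoma. In non-lymphoma libraries the lowest, median and highest values were 1.52, 8.02 and 14.9 CPM. All 7 lymphoma libraries lay below the non-lymphoma median, and 3 of them (L1, L3 and L4) lay below every non-lymphoma library. L5 was the high lymphoma library and N2 and N7 were the low non-lymphoma ones. The means were 2.77 ± 2.35 against 7.48 ± 4.77 CPM (SD, n = 7 each), and 8.47 ± 4.36 (SD, n = 6) without N2. The log2 ratio of geometric means was -1.47, a 2.78-fold lower level in lymphoma, and -1.80 without N2. No p is given for these sums, since the members were chosen with earlier results of these data known.

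**Figure D1:**
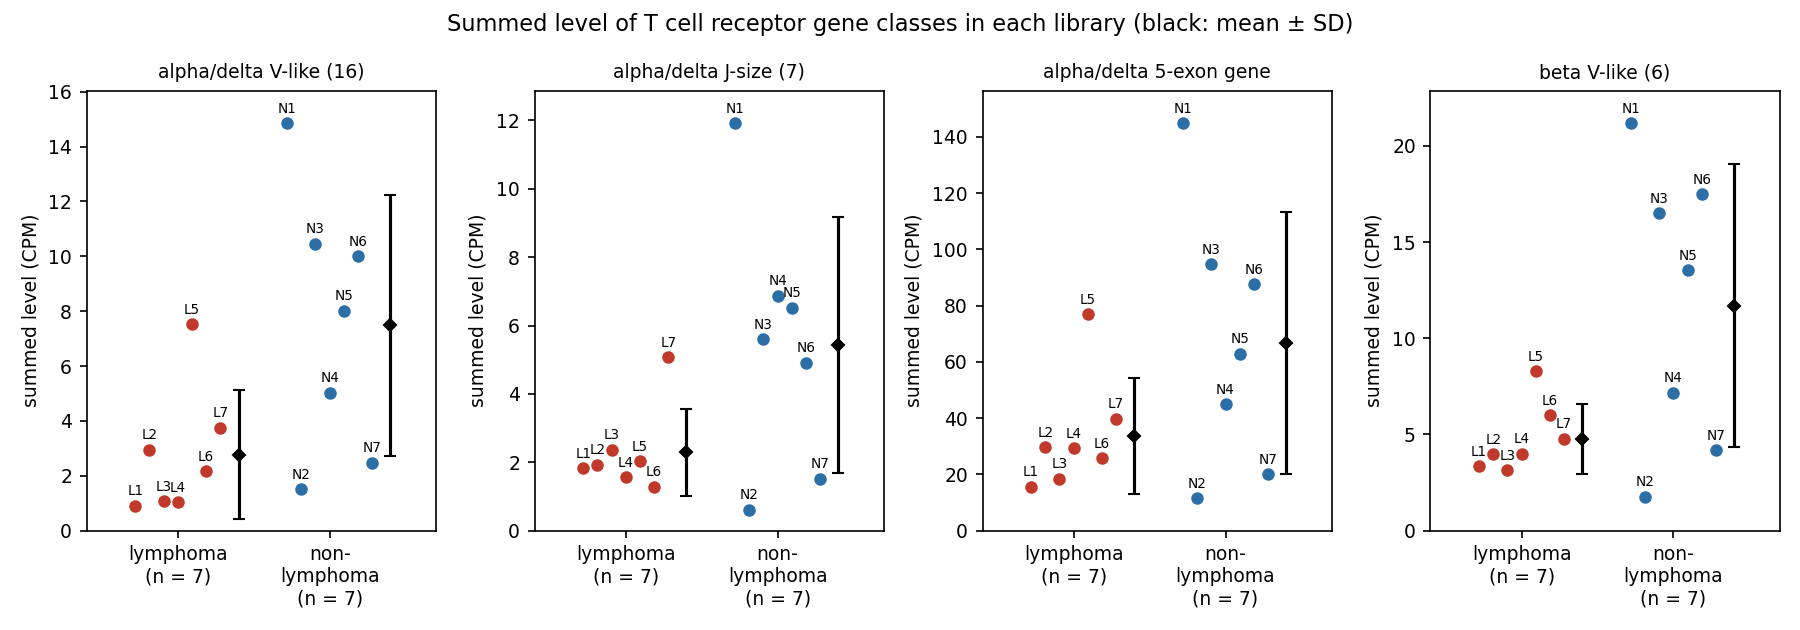
Summed level in CPM (y axis) of the alpha/delta V-like genes, the alpha/delta J-size genes, the alpha/delta 5-exon gene and the beta V-like genes, each point a library and the black diamond and bar the mean and SD of 7 libraries. In all 4 panels N1 is the highest and N2 the lowest non-lymphoma library, and N2 and N7 lie among the lymphoma libraries or below them.

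The V-like genes of the beta window also had a lower mean in lymphoma, again with overlapping groups. Their summed level was lowest at 3.15, had a median of 4.0 and was highest at 8.30 CPM in lymphoma. The non-lymphoma values were 1.76 at the lowest, 13.5 at the median and 21.2 CPM at the highest. All 7 lymphoma libraries lay below the non-lymphoma median, and none lay below N2. The means were 4.79 ± 1.82 and 11.7 ± 7.37 CPM (SD, n = 7 each), and 13.4 ± 6.49 (SD, n = 6) without N2. The log2 ratio was -0.97, or 1.96-fold lower, and -1.36 without N2.

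The size of both differences moved with the scaling and with the libraries used. TMM scaling, which takes 1 factor per library from the bulk of genes, raised every log2 ratio by 0.24. The alpha/delta and beta V-like ratios were then -1.23 and -0.73. Within the libraries whose sample number in the labels has 5 digits, 2 lymphoma (L5 and L6) and 7 non-lymphoma, the ratios were -0.54 and -0.33. The labels do not say whether the form of the number marks a batch, and its part in the result was not tested.

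Constant genes have several exons. The gene with 5 exons at 2920146 to 2951815 starts among the J-size genes with counts and extends past the last of them, where a constant gene would lie. Its level was 15.6, 29.3 and 77.0 CPM at the lowest, median and highest in lymphoma and 11.6, 63.0 and 145 CPM in the controls. L5 was again the highest lymphoma library and N2 the lowest library of all. The means were 33.7 ± 20.7 and 66.7 ± 46.6 CPM (SD, n = 7 each). By edgeR's quasi-likelihood test with Benjamini-Hochberg adjustment over all tested genes it was not called, with a log2 fold change of -0.65 ± 0.46 (SE, adjusted p = 0.334). Without N2 the control mean was 75.9 ± 43.6 CPM (SD, n = 6) and the log2 fold change -0.82 (edgeR adjusted p = 0.197). The log2 fold change ran from -0.90 to -0.42 with 1 library left out, the former without L5 and the latter without N1, and was -0.20 in the 5-digit libraries. Per kilobase of exon, this gene had a level of 46.2 CPM in lymphoma and 91.5 CPM in non-lymphoma libraries, against 3.04 and 8.74 CPM per kilobase for the most abundant alpha/delta V-like gene.

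The J-size genes, as short as J segments are, had summed levels of 1.28, 1.93 and 5.08 CPM at the lowest, median and highest in lymphoma. Non-lymphoma libraries had 0.608, 5.6 and 11.9 CPM. L7 alone stood up among the lymphoma libraries, with 50 counts against 18 to 26 in the others. All 7 lymphoma libraries lay below the non-lymphoma median, and L7 lay above N2, N6 and N7. The log2 ratio was -0.90. The means were 2.30 ± 1.27 and 5.42 ± 3.75 CPM (SD, n = 7 each), and 6.22 ± 3.38 CPM (SD, n = 6) in the controls without N2. Of the 7 genes 3 passed the filter on low counts, with log2 fold changes from -0.82 to -0.65 and edgeR adjusted p-values from 0.429 to 0.528. Their median log2 fold change was -0.68, -0.86 without N2 (lowest edgeR adjusted p = 0.287) and -1.57 in the 5-digit libraries.

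A gene just over the length limit ran along the beta V-like genes. It lies at 6765554 to 6925374 of chromosome 16, has 9 exons and 1583 exonic bases, and is no member. Its level was 10.2, 18.1 and 42.7 CPM at the lowest, median and highest in lymphoma and 13.3, 70.4 and 141 CPM in the controls. N2 and N7 were again low and L5 high. The edgeR log2 fold change was -1.27 ± 0.45 (SE, adjusted p = 0.0642), which was not called. The span of this gene is overlapped by 11 other genes. Exon sharing was counted for members only, and the member at 6767154 to 6795545 shares exonic bases with it. In non-lymphoma libraries it had 0.891 to 1.15 counts for each count of the alpha/delta 5-exon gene, and in lymphoma 0.493 to 0.916. At the other side of the limit, the longest member, with 15 exons and 1499 bases at 3509638 to 3544740 of chromosome 8, had 1.34 ± 0.648 against 0.787 ± 0.3 CPM (SD, n = 7 each) and an edgeR log2 fold change of 0.98 ± 0.36 (SE, adjusted p = 0.0674).

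The levels of both loci went up and down together across the non-lymphoma libraries. The log2 summed CPM of the V-like genes of the alpha/delta and the beta window had a Pearson r of 0.99 and a Spearman rho of 0.964 over the 7 non-lymphoma libraries. Without N2 and N7, the 2 libraries farthest from the median, r was 0.974 and rho 0.9 (n = 5). Over the 7 lymphoma libraries r was 0.832 and rho 0.679, and r was 0.63 without L5. Without L5 and L1 r was 0.532 and rho 0.3 (n = 5). For this pair the relation in lymphoma weakened without its extreme libraries, while that in non-lymphoma libraries changed little. The alpha/delta V-like sums in lymphoma rest on 11 to 96 counts. Between the beta V-like sum and the alpha/delta 5-exon gene, r in lymphoma was 0.854, 0.612 without L5 and 0.948 without L5 and L6 (n = 5). In non-lymphoma libraries r of that pair was 0.985, and 0.934 without N2 and N7 (n = 5). The points share library depth and blood composition, and these correlations are descriptions with no p.

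**Figure D2:**
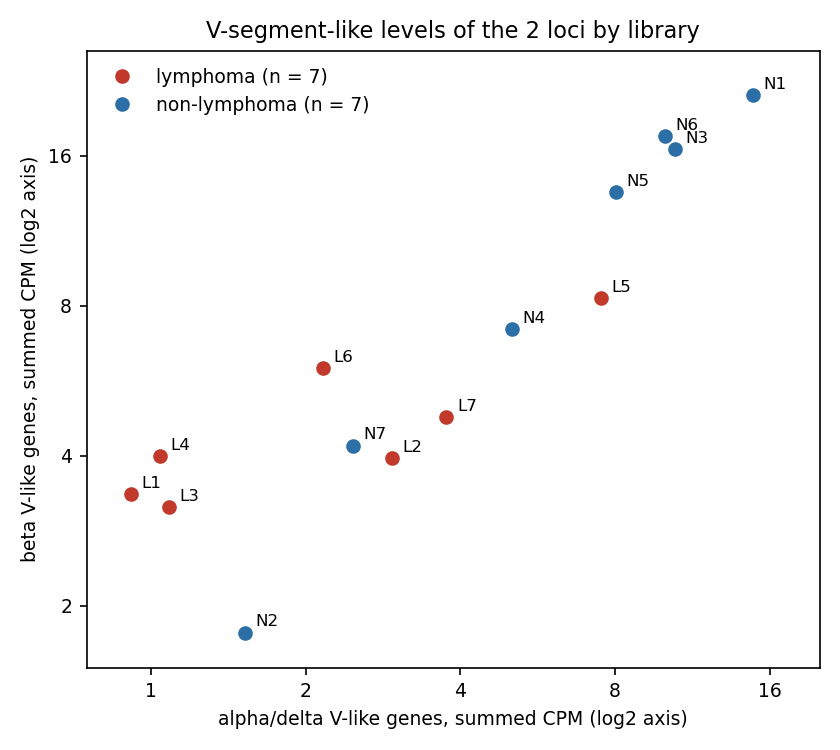
Summed CPM of the alpha/delta V-like genes (x axis) against the beta V-like genes (y axis), both on log2 axes, each point a library. The non-lymphoma libraries run from N2 at the lower left to N1 at the upper right with r of 0.99, and the lymphoma libraries lie in the lower part, L5 highest.

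Over all members of each window the correlation was lower, with an r of 0.566 (rho 0.5) in lymphoma and 0.353 (rho 0.571) in non-lymphoma libraries. Without the 2 libraries farthest from the median r turned to -0.48 (rho -0.3) in lymphoma and -0.717 (rho -0.1) in non-lymphoma libraries (n = 5 each). The correlation over all members thus rests on those libraries. Of the 4 members of each window with the highest level per kilobase, 1 in all is V-like. On chromosome 8 a gene with 3 exons at 2963719 to 2984921 had 59.7 ± 11.7 CPM in lymphoma against 56.4 ± 13.7 CPM (edgeR adjusted p = 0.306), and one with 3 exons at 3344233 to 3349926 had medians of 31.0 and 27.8 CPM (edgeR adjusted p = 0.963). On chromosome 16 a gene with 8 exons at 6411761 to 6416070 had 17.1 ± 10.8 against 33.3 ± 15.4 CPM (edgeR adjusted p = 0.251, log2 fold change -0.76, and -0.46 without N2). Its rho with the alpha/delta V-like sum was -0.68 in the controls, the opposite sign to that of the beta V-like genes. The genes at 7451444 to 7461464 and 7556868 to 7559991 had log2 fold changes of -0.08 and -0.55 (edgeR adjusted p = 0.794 and 0.158). All members of the alpha/delta window summed to 233 ± 49.4 and 286 ± 82.9 CPM, a log2 ratio of -0.27. Those of the beta window summed to 69.0 ± 19.1 and 112 ± 18.1 CPM, a log2 ratio of -0.72 (SD, n = 7 each), with 6 of 7 lymphoma libraries below all controls. Without its V-like genes the beta window still had a log2 ratio of -0.67.

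Among the tested members, those inside the V-like stretches more often followed the other locus in non-lymphoma libraries. In the beta window the V-like genes reach from 6754479 to 7015804, and all 8 tested members in that stretch had a rho over 0.7 with the alpha/delta V-like sum across non-lymphoma libraries. None of the 7 tested members outside it did. In the alpha/delta window, from the first V-like gene to the end of the 5-exon gene (2282856 to 2951815), 7 of 9 tested members had a rho over 0.7 with the beta V-like sum, against 2 of 8 outside. Those 2 were a single-exon gene at 3563457 and an 11-exon gene at 3705005. In lymphoma 2 of 9 tested members inside and 1 of 8 outside the alpha/delta stretch passed 0.7, and 2 of 8 inside and 0 of 7 outside the beta stretch. The highest rho of the alpha/delta window in lymphoma, 0.893, was that of a member outside, the gene at 2963719. The stretches and the value of 0.7 were set after the data were seen, and the share of all tested genes with such a rho was not computed. Some longer genes outside the alpha/delta stretch, which are no members, followed the 5-exon gene in the controls. Those at 3248404, 3272405 and 3782163 had a rho of 0.893, 0.929 and 0.929 with it, while others ran against it, such as that at 1700161 (rho -0.714).

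The J-size genes followed the V-like genes less closely. Their sum had an r of 0.925 (rho 0.679) with the alpha/delta V-like sum in non-lymphoma libraries, which dropped to 0.398 without N2 and N7. In lymphoma r was 0.328 (rho 0.5). The 5-exon gene and the alpha/delta V-like sum had an r of 0.998 (rho 1) in non-lymphoma and 0.906 (rho 0.893) in lymphoma libraries, and 0.988 and 0.717 without the 2 farthest libraries. The beta gene of 9 exons followed the 5-exon gene of the other chromosome with an r of 0.994 (rho 0.964) in non-lymphoma and 0.915 (rho 0.893) in lymphoma libraries.

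V-like counts were also set against the alpha/delta 5-exon gene, a ratio chosen after the data were seen. In non-lymphoma libraries the alpha/delta V-like genes had 10.3 counts at the lowest, 11.4 at the median and 13.2 at the highest per 100 counts of the 5-exon gene. In lymphoma the values were 3.56, 8.36 and 9.93. All 7 lymphoma libraries lay below all 7 non-lymphoma libraries, N2 and N7 included, whose 25 and 39 V-like counts lie within the range of the lymphoma libraries. The means were 7.54 ± 2.47 and 11.7 ± 1.03 (SD, n = 7 each). Counting error is wide here: L4, with 12 V-like counts, had a 95% exact interval of 1.82 to 6.30, L2 one of 6.53 to 14.6 and N2 one of 8.30 to 20.03. The interval of L4 alone lay below those of all non-lymphoma libraries. The intervals cover counting error only. The separation was seen for the 2-exon class only, and the ratio was not computed for other definitions of the V-like class. With 3-exon genes of V-like size added, L5 had 105 counts beside 983 of the 5-exon gene and N1 271 beside 2517, which is close. Single-exon genes of that size were left out too. That at 2496960 had 27 counts in L2 and 69 in N1, beside 29 and 258 V-like counts. Beta V-like counts per 100 counts of the 5-exon gene overlapped between the groups, with 15.9 ± 4.81 in lymphoma and 17.9 ± 2.81 in the controls (SD, n = 7 each). The J-size counts overlapped as well, with 8.10 ± 4.21 in lymphoma and 8.32 ± 3.56 in the controls (SD, n = 7 each).

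**Figure D3:**
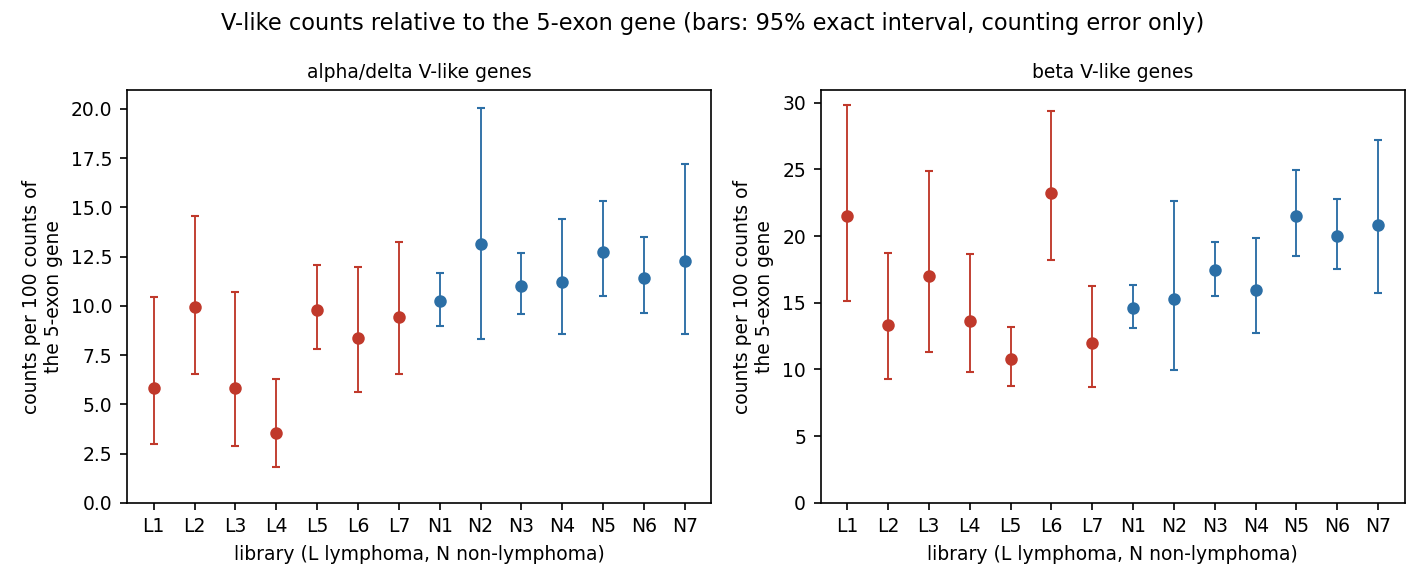
Counts of the alpha/delta V-like genes (left) and the beta V-like genes (right) per 100 counts of the alpha/delta 5-exon gene (y axes, from 0) in each library (x axes), with 95% exact intervals for counting error. On the left every lymphoma point (3.56 to 9.93) lies below every non-lymphoma point (10.3 to 13.2), with overlapping intervals for most, and on the right the groups overlap.

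In each window 1 V-like gene led in most libraries. The 2-exon gene at 2311539 to 2312292 of chromosome 8 (381 exonic bases) held the most V-like counts of its locus in all 7 non-lymphoma libraries and in L4 to L7. Its level was 0.0761, 0.674 and 4.15 CPM at the lowest, median and highest in lymphoma and 0.791, 3.38 and 5.55 CPM in the controls. The lymphoma values apart from that of L5 lay below 5 of the 7 non-lymphoma libraries. Its edgeR log2 fold change of -1.24 ± 0.65 (SE, adjusted p = 0.186) was not called, nor was that of -1.93 without L5 (adjusted p = 0.0636) or that of -0.36 in the 5-digit libraries (adjusted p = 0.841).

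In L1, L2 and L3 other V-like genes led. L2 had 18 of its 29 alpha/delta V-like counts, 62.1% (95% exact interval 42.3 to 79.3%), on the gene at 2578008 to 2578610, which had 0 to 6 counts in the other lymphoma libraries. In L1 the gene at 2539703 to 2540281 had 3 of 12 counts, a tie with the gene at 2578008, and the gene at 2365535 to 2366207 led in L3 with 4 of 11 counts. These small totals do not order the genes within the libraries. L4 had the most uneven use, with 9 of 12 counts on its leading gene (75%, 95% exact interval 42.8 to 94.5%).

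The leading gene took 25 to 75% of alpha/delta V-like counts in lymphoma, with a median of 43.2%, and 35.7 to 55.9% in the controls, where the median was 44.7%. The effective number of V-like genes, the exponential of the Shannon entropy of their shares, had a median of 4.55 in lymphoma (2.06 to 6.32) and 6.09 in non-lymphoma libraries (4.05 to 7.99). Between 3 and 10 of the 16 genes had a count in a lymphoma library, and between 6 and 14 in a control. With each library thinned to 9845059 counts, the smallest total, 6.05 ± 2.33 and 9.68 ± 2.48 of them remained (SD, n = 7 each). The number detected and the effective number also move with the number of V-like counts in a library. These ran from 11 to 96 in lymphoma and from 25 to 258 in the controls. Neither number was computed at equal V-like counts, so the lower values in lymphoma do not show narrower V use.

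**Figure D4:**
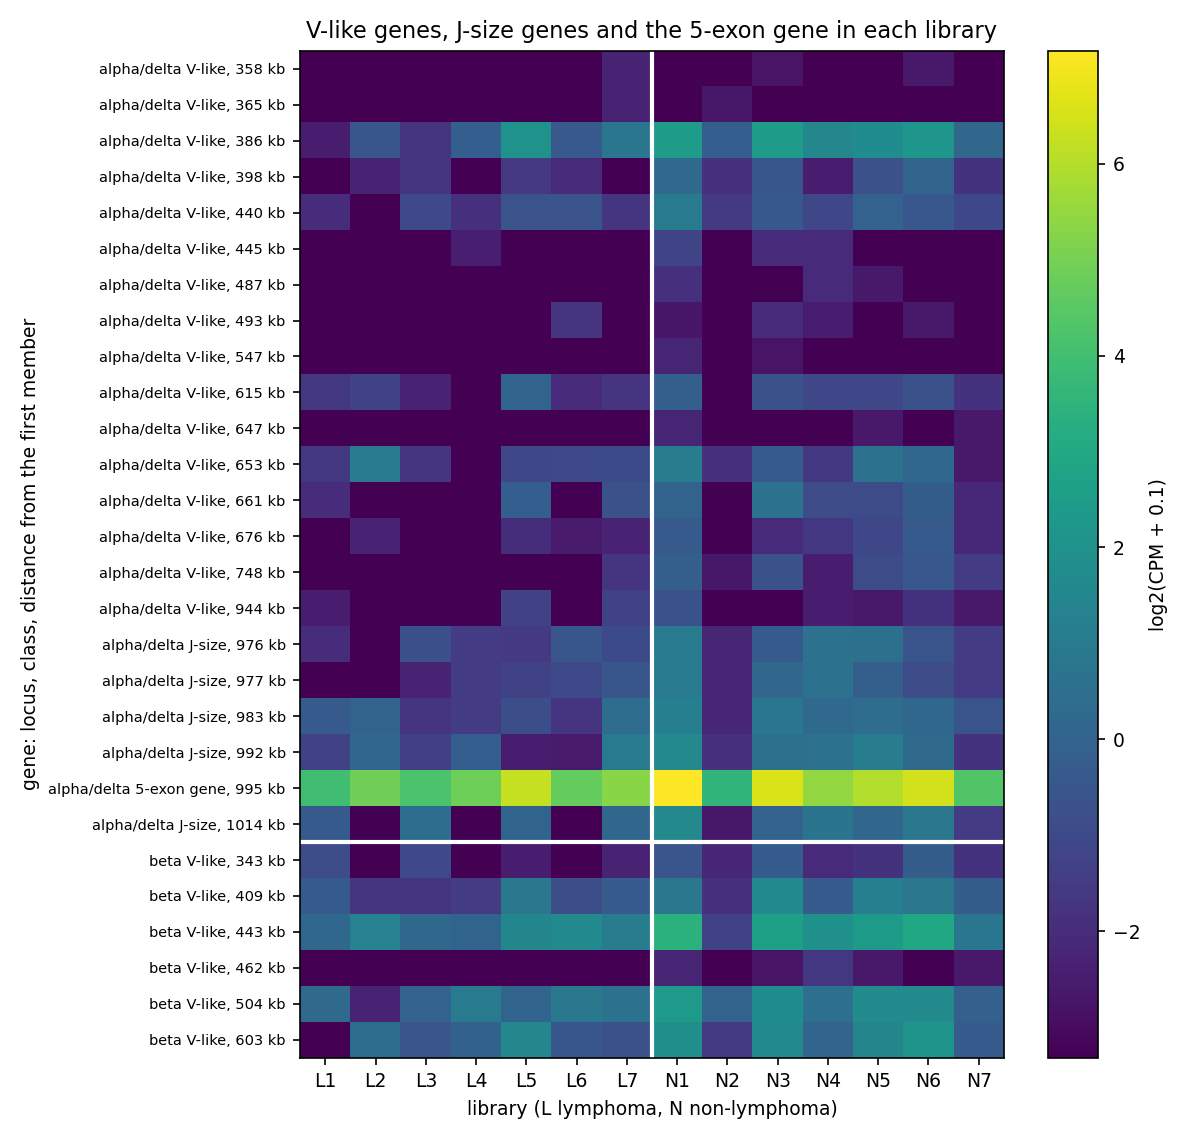
Level of the V-like genes, the J-size genes with counts and the 5-exon gene (rows, in order of distance from the first member of the window) in each library (columns), as log2 of CPM plus 0.1. The row at 386 kb, the gene starting at 2311539, is the brightest V-like row of the alpha/delta window in the non-lymphoma libraries, and N2 has the fewest V-like genes with counts, 6 of 16, among the non-lymphoma columns.

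Among the 6 beta V-like genes the one at 6854726 to 6855493 (519 exonic bases) led in 10 of 14 libraries. Its level was 0.956, 2.03 and 3.17 CPM at the lowest, median and highest in lymphoma and 0.304, 5.20 and 10.3 CPM in the controls, where N2 had the lowest value of all 14. All 7 lymphoma libraries lay below the non-lymphoma median. Its edgeR log2 fold change was -1.01 ± 0.54 (SE, adjusted p = 0.193, and 0.0781 without N2), which was not called, and -0.52 in the 5-digit libraries (edgeR adjusted p = 0.777). The gene at 6915932 to 6916611 led in L1, L4 and N2, and had 1.17 ± 0.609 against 2.50 ± 1.51 CPM (SD, n = 7 each) and an edgeR log2 fold change of -0.84 ± 0.47 (SE, adjusted p = 0.213).

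L5 was the only library led by the beta gene at 7015053 to 7015804, with 36 of 106 counts (34%, 95% exact interval 25 to 43.8%). That gene had 0.945 ± 0.905 against 2.21 ± 1.57 CPM (SD, n = 7 each) and an edgeR log2 fold change of -0.93 ± 0.67 (SE, adjusted p = 0.334), which ran from -1.42 (without L5) to -0.69 (without L1) with 1 library left out and was -0.23 in the 5-digit libraries. The fourth tested beta V-like gene, at 6820510 to 6821112, had -1.07 ± 0.57 (SE, edgeR adjusted p = 0.191), and -0.34 in the 5-digit libraries. The leading beta gene took 34 to 61.5% of V-like counts in lymphoma (median 42.6%) and 37 to 52.6% in the controls (median 44.6%). The direction turned with the length range of the class: with a narrower range the medians were 60% in lymphoma and 46.4% in the controls. That range leaves out the genes at 6854726 (519 bases) and 6915932 (561 bases), which led in most libraries. These medians thus describe other genes, with fewer counts. The effective number of beta V-like genes had medians of 3.77 and 3.93, likewise not computed at equal V-like counts. The groups overlapped in the share of the leading gene.

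Member by member, few genes were called between the groups. Of the 61 alpha/delta members 17 passed the filter on low counts, and 1 was called lower and 1 higher by edgeR's quasi-likelihood test. Over all 12836 genes tested the calls were 7.4% lower and 9.21% higher, 16.6% in all. Of the 38 beta members 15 were tested and 0 were called, with 0 at an unadjusted p under 0.05. Without N2 the called members were those of all 14 libraries, 1 lower and 1 higher, where the calls over 13021 genes were 5.44% lower and 7.17% higher, 12.6% in all. The median log2 fold change was -0.44 over the tested alpha/delta members and -0.76 over the tested beta members, against -0.05 over all tested genes. A gene expressed in 1 group alone can pass the filter through that group, so these medians describe the members that passed and support nothing further.

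**Figure D5:**
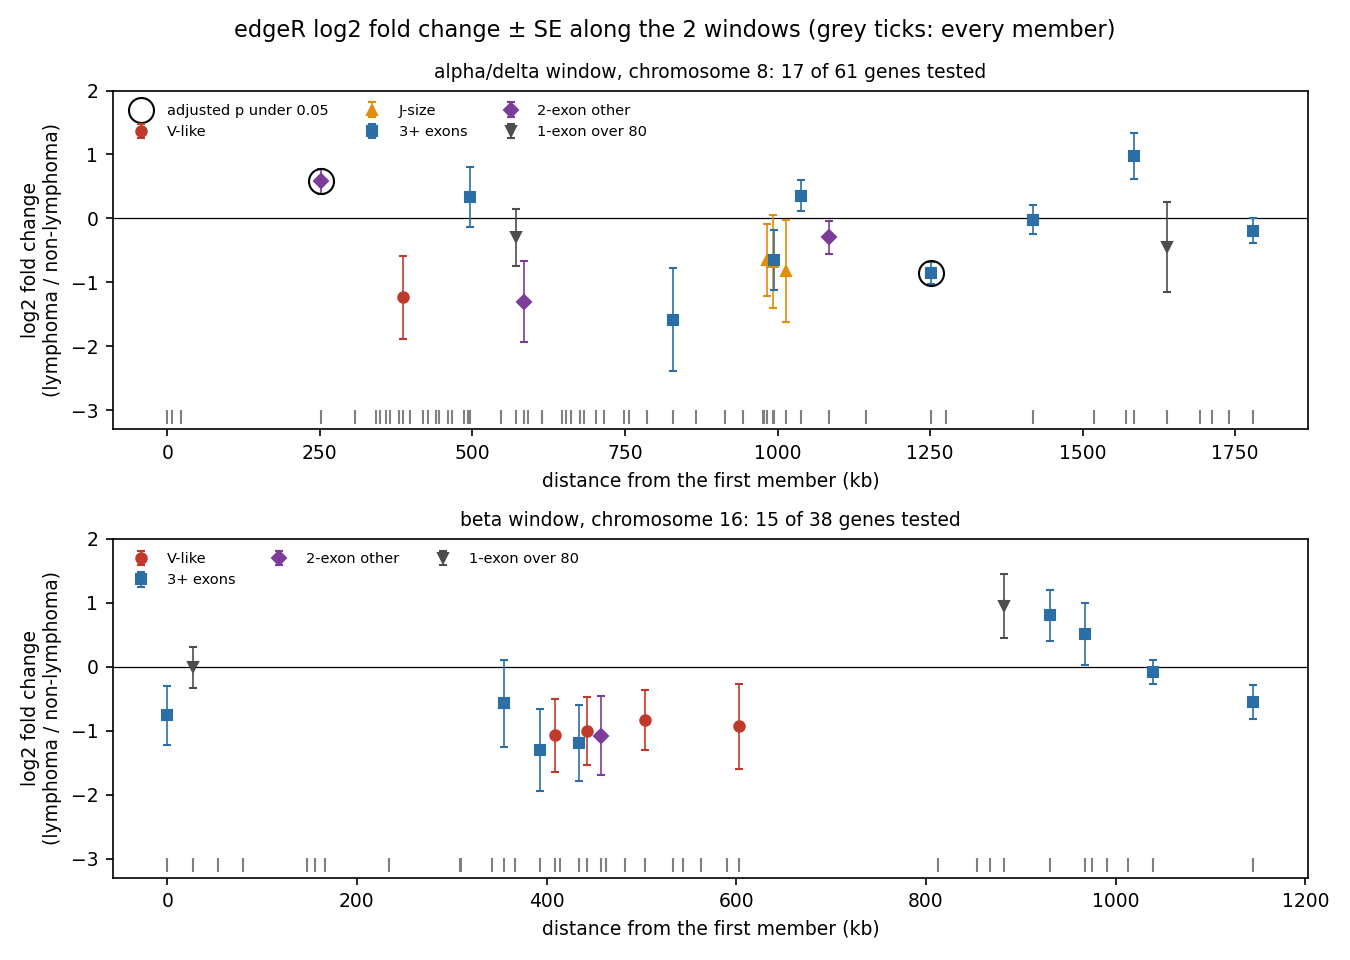
edgeR log2 fold change with its SE (y axes, lymphoma over non-lymphoma) of the tested members against distance from the first member in kb (x axes) in the alpha/delta window (top) and the beta window (bottom), with grey ticks for all members and circles around the 2 called genes. The tested V-like genes lie between -1.24 and -0.84 with wide error bars, and both circled genes are of other classes.

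Both called genes lie outside the receptor stretch. ENSCAFG00000011191, with 6 exons at 3177093 to 3181518 of chromosome 8 on the plus strand, had 4.77, 8.69 and 11.8 CPM at the lowest, median and highest in lymphoma and 13.9, 16.3 and 28.6 CPM in the controls. The groups did not overlap, as was so for 2.39% of all tested genes in this direction. In lymphoma it fell by 0.86 ± 0.18 (log2, SE; edgeR adjusted p = 0.00673), and it was called in each of the 14 fits that left out 1 library (edgeR adjusted p up to 0.0157). Within the 5-digit libraries its log2 fold change was -0.91 (edgeR adjusted p = 0.191). Its rho with the beta V-like sum was 0.107 in non-lymphoma libraries, against 0.964 for the 5-exon gene.

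ENSCAFG00000044478, with 2 exons and 192 bases at 2176546 to 2177259 on the minus strand, had 37.1, 57.1 and 115 CPM in lymphoma and 35.2, 45.8 and 73.5 CPM in non-lymphoma libraries at the lowest, median and highest. The groups overlapped, and 5 of 7 lymphoma libraries lay above the non-lymphoma median. It rose by 0.58 ± 0.19 (log2, SE; edgeR adjusted p = 0.0486), close to the threshold of 0.05. Of the 14 fits that left out 1 library 4 called it, those without L3, L6, N1 or N2, and the log2 fold change ran from 0.46 to 0.66 over the 14 (edgeR adjusted p up to 0.0979). With the replicate number as a block it was not called (edgeR adjusted p = 0.0975), nor with upper-quartile factors (0.0642), with no filter (0.116) or by limma-voom (0.0537).

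The 9 tested members inside the alpha/delta stretch had log2 fold changes from -1.59 to 0.34, 8 of them negative, and the 8 outside from -0.86 to 0.98, 5 of them negative. The lowest was that of a gene with 8 exons at 2753534 to 2866344 (-1.59 ± 0.81, SE, edgeR adjusted p = 0.174). A gene with 2 exons at 2510605 to 2511652, with 933 bases too long for the V-like class, had -1.30 ± 0.64 (SE, edgeR adjusted p = 0.159) and a rho of 1 with the beta V-like sum over the 7 non-lymphoma libraries. In the beta stretch all 8 values were negative, from -1.31 to -0.57, and 3-exon genes at 6804259 to 6814200 and 6846268 to 6852027 had -1.31 ± 0.64 and -1.20 ± 0.59 (SE, edgeR adjusted p = 0.159 and 0.163). None of these members was called. Over all 12836 tested genes 52.7% of the log2 fold changes were negative. The stretches were set after the data were seen, and a member can pass the filter through the controls alone. These counts of negative values therefore only describe the members that passed.

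Low members were called under other settings, and are given here after their values were seen. A V-like gene at 2673110 to 2673683 had 2 counts over all lymphoma and 48 over all control libraries. It was lower by DESeq2 (adjusted p = 0.012) and by edgeR with no filter (adjusted p = 0.0434). A gene with 2 exons and 1119 bases at 6721091 to 6723288 had 22 and 3 counts and was higher by both (DESeq2 adjusted p = 0.017, edgeR with no filter 0.0456). DESeq2 also called the 15-exon member higher (adjusted p = 0.0499). In all, DESeq2 called 2 alpha/delta members lower and 2 higher and 0 beta members lower and 1 higher, where it called 8.53% of 18702 genes lower and 9.0% higher, 17.5% in all. With no filter edgeR called 2 lower and 0 higher in the alpha/delta and 0 lower and 1 higher in the beta window, where it called 3.95% of 28663 genes lower and 3.03% higher, 6.98% in all. limma-voom called 0 beta members.

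The V-like genes of the immunoglobulin regions, by the same structure rule, are given side by side. Of 8 at the heavy chain end of chromosome 8, 2 were tested and 1 was called lower, and their median log2 fold change was -2.80. Of 23 in the lambda region of chromosome 26, 5 were tested and 4 called lower, and the median was -2.60. These calls stand beside the 7.4% of all tested genes called lower, and the medians cover only the genes that passed the filter. Single lymphoma libraries went the other way: L1 had the highest lambda sum of all 14 libraries, 98.4 CPM against 23.0 to 66.1 CPM in the controls, and L6 had a heavy chain sum of 35.5 CPM, above 6 of 7 controls. Of the 22 V-like genes of both T cell receptor loci 5 were tested and 0 called, and the median was -1.01. The difference between these sets was not tested.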

How the data were processed

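RNA from dog blood was measured by RNA-seq in 14 libraries. The values are raw counts per gene, deposited by the authors in 1 table. Per the file header, the authors made the counts with featureCounts 2.0.1 on read pairs, exons summed by gene, with the Ensembl 103 annotation of CanFam3.1, and the command holds no option for strand or for reads with several matches. The submitters' processing notes also name HISAT2 2.2.1, Subread 2.0.1 and DESeq2, without roles. Reads that match several V segments, and genes that overlap on either strand, may therefore be counted incompletely or together: 20 members in each window overlap another gene, and 3 and 4 share exons with one.

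Counts were fitted with edgeR 4.0.16 (quasi-likelihood, TMM factors, default filter on low counts, group only, all 14 libraries) over all genes, with Benjamini-Hochberg adjustment at 0.05. Levels are CPM over the whole table, and intervals are exact binomial or exact for a ratio of counts. Alternatives used DESeq2 1.42.0 and limma 3.58.1 (voom). The test was tried on simulated data made from these libraries, with 13272 genes tested. It found 31 of the 100 genes given a log2 change of 1 and 99 of the 100 given a log2 change of 2, and made 6 false calls. The changes were put only in genes above a minimum expected count, and every gene was given the same dispersion. These recoveries therefore do not give the power for receptor genes, most of which had low counts. Named genes are called members, the 4 members of each window with the highest CPM per kilobase, and the leading V-like gene of each library. Genes named beside these were picked after their values were seen. Members and lists were chosen with earlier results of these data known.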

Additional observations from a re-analysis of the deposited data

Results flagged for a closer look

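For each class sum and each named gene, the highest and the lowest library of a group were compared with the rest of the group. The measure was the gap to the nearest library as a share of the group's range, against Dixon's 95% limit for 7 samples. Of 50 groups examined 8 passed, where about 1 in 20, or 2.5, would pass by chance if the groups were independent and normally spread. They are not independent, since the class sums hold some of the named genes, so 8 against 2.5 is only a rough guide.

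L5 was the far library in 4 of them. Its alpha/delta V-like sum of 7.52 CPM lay above 0.913 to 3.76 CPM in the other lymphoma libraries (gap share 0.569), and its 5-exon gene at 77.0 CPM lay above 15.6 to 39.8 CPM (0.605). The V-like gene at 2311539 had 4.15 CPM in L5 and at most 1.63 CPM in the others (0.62), and the one at 2539703 had 0.939 CPM against at most 0.305 CPM (0.676). L2 stood out in the V-like gene at 2578008, with 1.83 CPM against at most 0.406 CPM (0.778). L7 stood out in the J-size sum, with 5.08 CPM against at most 2.36 CPM (0.715). Among non-lymphoma libraries N1 was high in the V-like gene at 2365535, with 1.84 CPM against at most 0.877 CPM (0.604), and in the called gene at 2176546, with 73.5 CPM against at most 51.8 CPM (0.5682).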

How the results depend on the processing

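Over 28 results and 522 alternatives, 462 kept the direction and the side of the threshold or stayed within the spread, 35 moved, 16 lost a call and 9 reversed. Alpha/delta members called lower numbered 2 with no filter, 2 with DESeq2 and 0 in the 5-digit libraries. Those called higher numbered 0 with upper-quartile factors, no filter, limma-voom, the replicate block or the 5-digit libraries, 2 with DESeq2, and 0 to 2 with a library left out. Beta members called higher numbered 1 with no filter or DESeq2, and 0 to 1 with a library left out (1 without N5). Over all genes, 1595 were called lower with DESeq2, 285 with the replicate block, 22 in the 5-digit libraries and 577 to 1119 with a library left out (577 without L5). Called higher were 440 with the block and 82 in the 5-digit libraries. Upper-quartile factors gave 985 higher and 1181 lower and no filter 869 and 1133, against 1182 and 950. The alpha/delta log2 ratio of -0.27 was -1.47 both for V-like members and for members of that size with 2 or 3 exons. The correlation of 0.57 in lymphoma was 0.83 for V-like members and -0.48 without the 2 farthest libraries, and that of 0.35 in non-lymphoma libraries was 0.99 and -0.72, and 0.74 without the most abundant members. The V-like log2 ratios ran from -1.80 to -1.25 (alpha/delta) and from -1.36 to -0.76 (beta) with 1 library left out, and were -2.10 and -1.50 without N2 and L5. The difference in median share of the leading beta V-like gene, -2.05 percentage points, was 13.6 with a narrower length range for the class. That range leaves out the genes at 6854726 and 6915932, which led in most libraries. Among named genes, that at 3344233 (-0.02) was 0.073 by limma-voom, 0.068 with the replicate block and -0.10 to 0.15 with a library left out, and that at 7451444 (-0.08) was 0.15 in the 5-digit libraries. The cause was not tested.

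Deviations of same-numbered libraries correlated from -0.34 to 0.35, and 1 of 7 matched its own number best. Matched libraries need not share such deviations, so these values do not settle whether the replicate numbers mark pairs. Receptor genes had few counts. The alpha/delta V-like genes had 11 to 32 counts in L1, L2, L3, L4 and L6, so shares of single V-like genes there are imprecise, and 15 of the 16 did not pass the filter.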
